A study of Mus musculus with 16 samples.

Results

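The effect of a high-fat diet on the liver of mice lacking 1 copy of Gli2 was described from 8 of the 16 arrays of the series. The samples were chosen by their genotype label, Gli2_Het, and divided by their diet label into 4 animals on control diet (Het_control) and 4 on high-fat diet (Het_HFD), both kept for 12 weeks on the diet. The other 8 arrays come from wild-type mice, 4 on each diet for the same time, and they entered the fit to estimate the spread and to set the wild-type response beside the heterozygous one. Their genotype field reads Gli1_WT although the series text speaks of Gli2, and they are treated as wild type. The heterozygotes carry 1 null allele of Gli2, and how it was made was not analysed here. The labels call the animals adult and give no sex, diet composition or description of the deleted part of Gli2. Each array holds the RNA of 1 whole liver sample, so more cells of a type and more RNA per cell cannot be told apart.

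Gli2 is a transcription factor that carries the hedgehog signal to the nucleus, where the signal turns on targets such as Gli1 and Ptch1. In adult liver the pathway is low in hepatocytes and is best known from stellate and bile duct cells during injury. A high-fat diet loads hepatocytes with triglyceride, and the known transcript changes in mouse liver include the fatty acid transporter Cd36, lipid droplet proteins, sex-biased enzymes set by growth hormone, and genes of resident and recruited macrophages.

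Values are log2 RMA levels, so a difference of 1 is a factor of 2, and every difference below is high-fat minus control diet in heterozygotes unless wild type is named. Levels are listed in the order of arrays 1 to 4, and the second control value is always Het_control 2. That array stood apart: its correlation across genes with the others was 0.961 to 0.979, against 0.99 to 0.997 among the other 15, and the interquartile range of its levels was 1.95, against 2.4 to 2.6. A compressed range lowers high and raises low levels on that array, so differences between the diets are given with and without it. Hepatocyte markers averaged 13.8 to 13.9 on all 8 heterozygous arrays, while markers of pancreas (8.01 to 8.48), gut and gallbladder (7.14 to 7.75) and T cells (7.46 to 7.87) were low on both diets. Gli2 read 7.57, 8.14, 7.50 and 7.59 on control diet, against 7.61, 7.46, 7.50 and 7.57 on high-fat diet. Its difference was -0.17 (SE 0.10, limma adjusted p = 0.258) and -0.02 without Het_control 2, and the probe set does not check the genotype because the deleted part is not known here.

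Of 19938 genes tested, 442 (2.22%) were called at an adjusted p under 0.05, 300 (1.5%) higher and 142 (0.712%) lower on high-fat diet. Without Het_control 2 the fit called 174 (0.873%), 116 higher and 58 lower. Both fits called 161 genes (0.808%), of which 105 (0.527%) rose and 56 (0.281%) fell, and the 4 high-fat arrays lay on 1 side of the 4 control arrays for each of them. That held for 13.7% of all genes, with the high-fat arrays all higher for 6.58% and all lower for 7.15%. Most of these 161 changes were modest: 62 were under 0.5 in size and 17 over 1. Over all genes the median difference was -0.05, or -0.02 without Het_control 2, and 40.5% of genes were higher in value. This background depends on level. Among the 9969 genes with a mean level of at least 8.31, fitted alone, the median was 0.07, and 454 were called higher and 132 lower. Lists below are set beside all genes, dim ones included, so lists of well expressed genes stand out more than they would beside expressed genes. The count rested on single arrays. It fell to 127, 50, 45 and 52 without Het_HFD 1, 2, 3 and 4, to 191 and 139 without Het_control 1 and 3, to 121, 144, 284 and 197 when WT_control 1 to 4 were left out in turn, and to 193 and 190 when WT_HFD 1 or 3 was, while it rose to 3446 without Het_control 4. A set of 32 genes, 20 higher and 12 lower, was called whichever of the 16 arrays was left out. The p-values rest on 1 spread per gene, pooled over the 4 groups, wild type included. In the 16-array fit that spread includes Het_control 2. The median SD of the heterozygous controls was 0.175 with that array and 0.0773 without it. The series text describes the animals as separate.

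**Figure D1:**
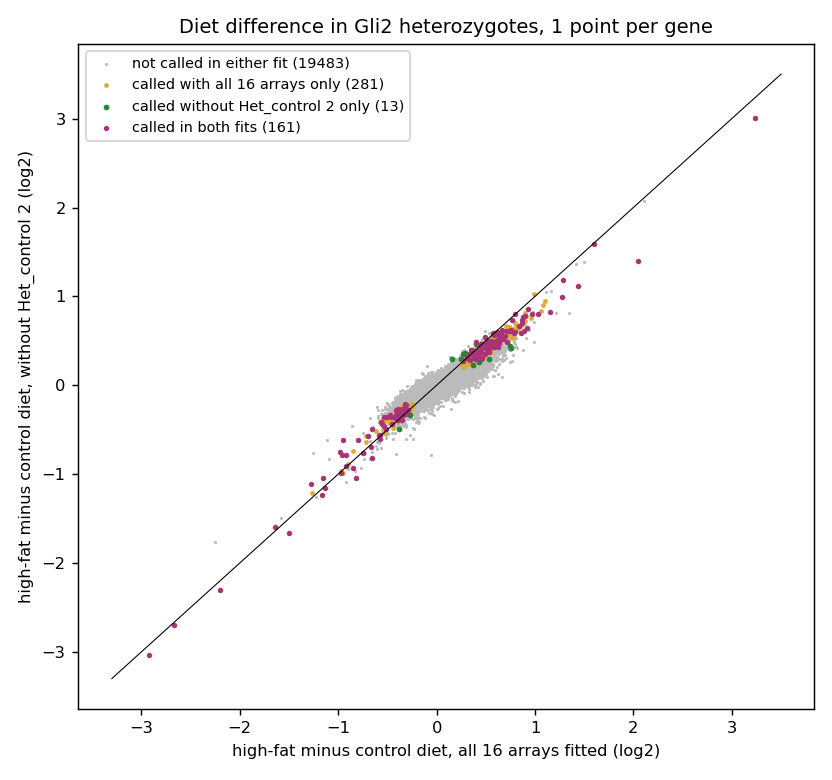
Each point is 1 of 19938 genes, with its high-fat minus control difference in heterozygotes from the fit of all 16 arrays on the x axis and from the fit without Het_control 2 on the y axis, both in log2, and colours mark in which fit it was called. The 161 genes called in both fits had the same direction in both, but their medians were smaller in size without Het_control 2. For the 105 that rose the median was 0.55 with the array and 0.47 without it, and for the 56 that fell -0.55 and -0.44. The line marks equal values, and 281 genes were called only with the array and 13 only without it.

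Single genes of fatty acid handling changed. Cd36, a membrane protein that takes up long-chain fatty acids, read 10.20, 9.16, 10.68 and 10.44 on control diet, against 11.49, 11.30, 11.67 and 11.76 on high-fat diet. The groups did not overlap, and Cd36 rose by 1.44 (SE 0.26, adjusted p = 0.0185), or by 1.12 without Het_control 2 (adjusted p = 0.0204). The call was lost without Het_HFD 3 or Het_HFD 4 (highest adjusted p 0.0653).

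The fatty acid binding proteins, small cytosolic carriers of lipids, moved in opposite directions. Fabp7, known from brain and also present in liver, read 9.29, 8.21, 9.36 and 9.36 on control diet, against 10.27, 10.42, 10.23 and 10.42 on high-fat diet. It rose by 1.28 (SE 0.21, adjusted p = 0.0118) and by 0.99 without Het_control 2, where control levels differ by less than 0.1. Fabp5, the epidermal member, read 11.50, 11.48, 12.44 and 10.80 on control diet, against 9.01, 9.09, 8.76 and 8.69 on high-fat diet. The lowest control array stood above all high-fat arrays, and Fabp5 fell by 2.67 (SE 0.41, adjusted p = 0.00811), or fell by 2.69 without Het_control 2. Both calls held whichever array was left out. Fabp1, the abundant carrier of hepatocytes, differed by -0.04 (SE 0.07; -0.08 without Het_control 2), Fabp4 of adipocytes and macrophages by 0.17 (SE 0.10; 0.10 without it) and Fabp2 by 0.65 (SE 0.23, adjusted p = 0.094; 0.37 without it), and none of these passed the test in either fit. Of 19 measured genes for fatty acid uptake, binding and activation, Cd36 and Fabp7 rose and Fabp5 fell with and without Het_control 2. Of all genes 1.5% rose and 0.712% fell, or 0.582% and 0.291% without that array. The list's median difference was 0.06, or -0.00018 without Het_control 2 and -0.05 under interquartile scaling.

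**Figure D2:**
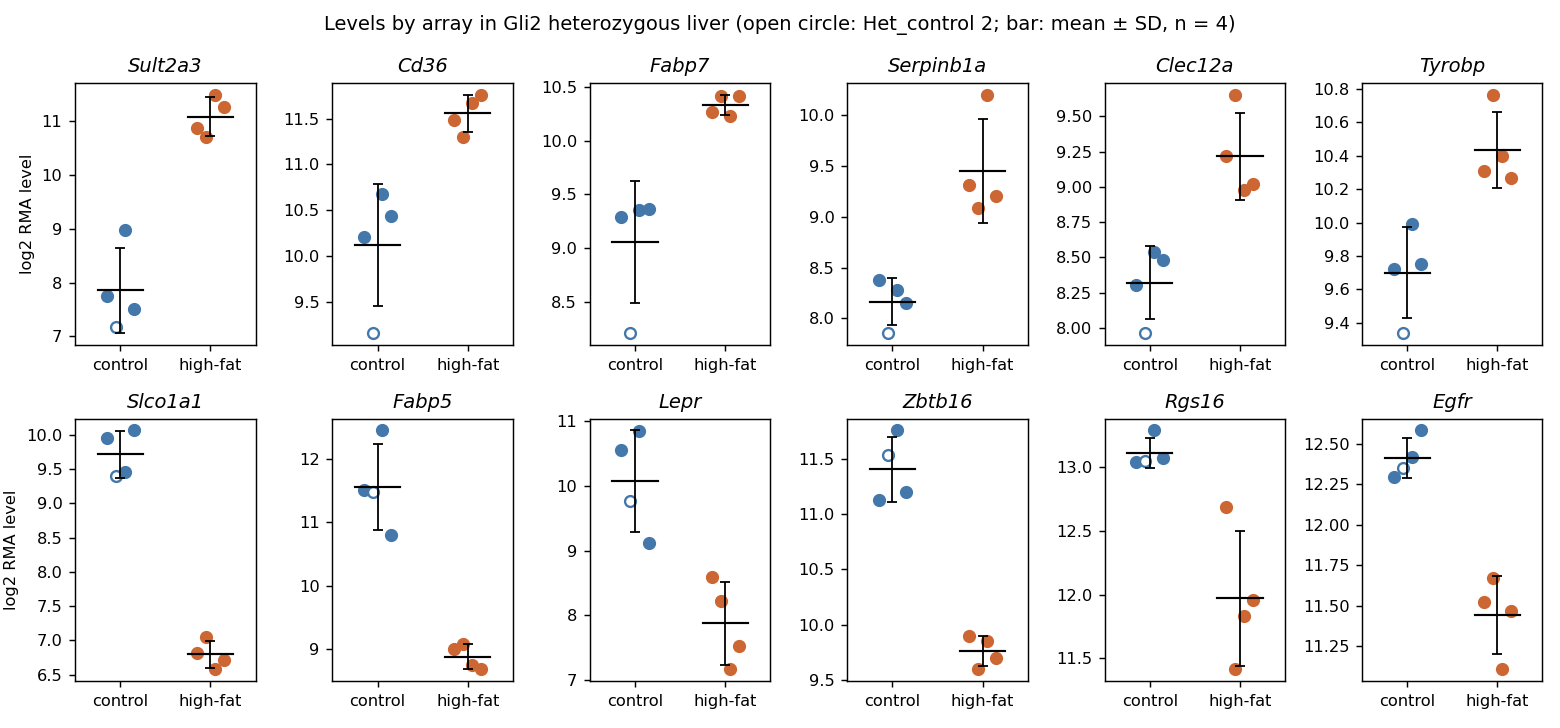
Log2 RMA level of 12 genes on the 8 heterozygous arrays, with blue points for control and orange points for high-fat diet, the open circle for Het_control 2, and bars for mean and SD (n = 4). The vertical axis of each panel is its own and does not start at 0, and in all 12 panels the groups do not overlap.

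Genes of triglyceride synthesis and storage gave few calls. Lpin1, a phosphatidate phosphatase that makes diacylglycerol and also acts with nuclear receptors, read 12.07, 12.38, 12.93 and 12.94 on control diet, against 11.31, 11.53, 11.31 and 11.49 on high-fat diet. It fell by 1.17 (SE 0.21, adjusted p = 0.0167) and fell by 1.23 without Het_control 2, with the call lost without Het_HFD 3 (adjusted p = 0.0597). The related Lpin2 and Lpin3 differed by -0.15 (SE 0.11) and -0.08 (SE 0.06), or -0.20 and -0.07 without Het_control 2, and were not called. The oxysterol receptor gene Nr1h3 (LXR alpha) rose by 0.38 (SE 0.08, adjusted p = 0.0352; 0.31 without Het_control 2), a call lost without Het_HFD 2, 3 or 4 (highest adjusted p 0.101). Of 30 genes of lipogenesis and triglyceride synthesis, Agpat2 and Nr1h3 rose and Lpin1 and Pnpla3 fell, against 1.5% and 0.712% of all genes. Without Het_control 2 only Nr1h3 and Lpin1 were called, against 0.582% rising and 0.291% falling. The median was -0.03, or -0.07 without that array. The list median was -0.22 under interquartile scaling and turned to 0.06 without Het_control 3, 0.03 without Het_control 4 and 0.0057 without Het_HFD 1.

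Of the lipid droplet coat proteins, Plin4 and Plin5 fell. Plin5, which tethers droplets to mitochondria, read 9.92, 9.86, 9.80 and 9.62 on control diet, against 9.22, 9.22, 9.35 and 9.34 on high-fat diet, and fell by 0.52 (SE 0.09, adjusted p = 0.0165). Plin4 fell by 0.40 (SE 0.07, adjusted p = 0.0152), and both were called without Het_control 2 as well (Plin5 -0.50, Plin4 -0.39) but not without Het_HFD 2 (adjusted p = 0.0569 for Plin4 and 0.0574 for Plin5). Plin2, the main coat protein of hepatocyte droplets, differed by -0.15 (SE 0.08, adjusted p = 0.191; -0.14 without Het_control 2). Fitm1, which helps droplets form, rose by 1.08 (SE 0.25, adjusted p = 0.0417), but its groups overlapped, the value was 0.90 without Het_control 2 (adjusted p = 0.0774), and 12 of 16 leave-outs lost the call. Over 20 droplet and lipase genes 1 rose and 2 fell, against 1.5% and 0.712% of all genes. Without Het_control 2 it was 0 and 2, against 0.582% and 0.291%. The median was -0.01 in both fits and -0.09 under interquartile scaling.

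Pparg, the nuclear receptor of adipocytes that also drives lipid storage in fatty liver, read 9.77, 9.32, 9.67 and 10.02 on control diet, against 10.39, 10.17, 10.17 and 10.43 on high-fat diet. Its rise was 0.60 (SE 0.12, adjusted p = 0.0257; 0.47 without Het_control 2, adjusted p = 0.0344), and 5 of 16 leave-outs lost the call (highest adjusted p 0.0839). The adipocyte markers Adipoq and Lep together averaged 6.35 to 6.74 on control diet, against 6.34 to 6.65 on high-fat diet, so they were low and overlapped. Among 43 genes of fatty acid oxidation and Ppara targets, Eci3 (1.06) and Aldh3a2 (0.39) rose and Angptl4, a secreted lipoprotein lipase inhibitor, fell by 0.53. Of all genes 1.5% rose and 0.712% fell. None of the 3 was called without Het_control 2 (0.83, 0.28 and -0.50). The median of that list was 0.20, or 0.12 without the array and 0.04 under interquartile scaling.

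Sulfotransferases, steroid enzymes and transporters with sex-biased expression held the largest changes in both directions. Sult2a3, a hydroxysteroid sulfotransferase that is higher in female liver, read 7.76, 7.17, 8.99 and 7.51 on control diet, against 10.88, 10.72, 11.50 and 11.26 on high-fat diet. That is a rise of 3.23 (SE 0.41, adjusted p = 0.00541), or 9.40-fold, and of 3.0 without Het_control 2. Wild-type levels overlapped between diets, 9.32 to 11.05 on control and 9.64 to 11.17 on high-fat diet, and all 4 heterozygous control arrays lay below the lowest wild-type array. Cyp3a16, a cytochrome P450 of young and female mice, rose by 1.60 (SE 0.31, adjusted p = 0.0222; 1.58 without Het_control 2). Its high-fat level on Het_HFD 4 was 10.77, against 11.71 to 11.80 on the others, and the call was lost without Het_HFD 1, 2 or 3 (highest adjusted p 0.0771).

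Other female-biased genes did not all move the same way. Hao2, a peroxisomal hydroxy acid oxidase, rose by 0.72 (SE 0.17, adjusted p = 0.0415; 0.49 without Het_control 2, adjusted p = 0.0344), a call lost in 11 of 16 leave-outs (highest adjusted p 0.119). Sult3a1 read 10.07, 9.86, 10.50 and 11.05 on control diet, against 8.83, 9.25, 8.49 and 8.92 on high-fat diet. It fell by 1.5 (SE 0.33, adjusted p = 0.0372; -1.67 without Het_control 2), and 10 of 16 leave-outs lost the call (highest adjusted p 0.0944). Of 14 female-biased genes measured, 4 rose and 1 fell in both fits, against 1.5% and 0.712% of all genes, or 0.582% and 0.291% without Het_control 2. The list median was 0.39, or 0.33 without Het_control 2 and 0.19 under interquartile scaling, against 0.18 in wild type. Without Het_HFD 1, 2, 3 or 4 the list had 2, 2, 1 and 2 risers and no call downward. Xist was high, between 12.6 and 12.9, and the Y-linked Kdm5d low, between 6.1 and 6.62, on all 16 arrays. All arrays therefore read as female, although the labels give no sex.

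Slco1a1, an organic anion transporter that is higher in male liver, read 9.95, 9.39, 9.46 and 10.07 on control diet, against 6.82, 7.06, 6.58 and 6.72 on high-fat diet. It fell by 2.92 (SE 0.50, adjusted p = 0.0139; -3.03 without Het_control 2), with no overlap, and was called whichever array was left out. Its relatives Slco1a4 (-0.02, SE 0.14; -0.15 without Het_control 2) and Slco1b2 (0.11, SE 0.08; 0.04 without it) were not called. Hsd3b5, a male-biased steroid dehydrogenase, read 8.10, 8.51, 7.97 and 7.43 on control diet, against 6.73, 6.78, 6.58 and 6.80 on high-fat diet. It fell by 1.28 (SE 0.22, adjusted p = 0.0152; -1.11 without Het_control 2), with the call lost only without Het_HFD 3 (adjusted p = 0.0561). These were the 2 called among 13 male-biased genes in both fits, against 0.712% of all genes falling, or 0.291% without Het_control 2. The list median was -0.02, or -0.06 without Het_control 2 and 0.08 without Het_control 4. Near-identical relatives of the Sult2a, Cyp3a, Slco1a, Hsd3b and Saa families can share probe signal, so a value may include that of a relative.

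The receptor genes Lepr and Egfr fell. The leptin receptor gene Lepr read 10.56, 9.77, 10.85 and 9.12 on control diet, against 8.59, 8.22, 7.17 and 7.52 on high-fat diet, and fell by 2.20 (SE 0.32, adjusted p = 0.00811; -2.30 without Het_control 2). Egfr, the epidermal growth factor receptor, read 12.29, 12.35, 12.42 and 12.58 on control diet, against 11.53, 11.67, 11.11 and 11.47 on high-fat diet. It fell by 0.97 (SE 0.15, adjusted p = 0.00811; -0.99 without Het_control 2). Both held in every leave-out, and they were the only called genes of 15 in the growth hormone axis list. Of all genes 0.712% fell, or 0.291% without Het_control 2. The list median was 0.0041, or -0.05 without Het_control 2 and -0.19 under interquartile scaling.

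Rgs16, an inhibitor of G protein signalling whose transcript follows the daily clock and feeding, read 13.04, 13.04, 13.28 and 13.06 on control diet, against 12.68, 11.42, 11.83 and 11.96 on high-fat diet. It fell by 1.14 (SE 0.19, adjusted p = 0.0125; -1.16 without Het_control 2). Of 21 circadian clock genes Rgs16 was the only one called, against 0.712% of all genes falling, or 0.291% without Het_control 2. The list median was 0.12, or 0.10 without Het_control 2 and 0.06 under interquartile scaling. St3gal5, which makes the ganglioside GM3, is not on the clock list and was picked after its value was seen. It read 12.24, 12.22, 12.43 and 12.24 on control diet, against 11.74, 11.58, 11.78 and 11.70 on high-fat diet, and fell by 0.58 (SE 0.09, adjusted p = 0.00811; -0.60 without Het_control 2), a call that held in every leave-out. The hour at which livers were taken is not in the labels.

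Targets of glucocorticoid hormones were called only downward. Zbtb16, a zinc finger transcription factor strongly induced by glucocorticoids, read 11.12, 11.53, 11.76 and 11.20 on control diet, against 9.90, 9.60, 9.85 and 9.70 on high-fat diet. The groups were far apart, and Zbtb16 fell by 1.64 (SE 0.22, adjusted p = 0.00552; -1.60 without Het_control 2). Fkbp5, a chaperone that dampens the glucocorticoid receptor, read 10.40, 10.53, 10.67 and 10.83 on control diet, against 10.10, 9.90, 9.80 and 9.96 on high-fat diet. It fell by 0.67 (SE 0.14, adjusted p = 0.0312; -0.69 without Het_control 2), a call that failed without Het_control 3 or Het_HFD 2, 3 or 4 (highest adjusted p 0.0876). Tsc22d3, another well known target, differed by -0.37 (SE 0.17, adjusted p = 0.151; -0.46 without Het_control 2), and the clock gene Per1, which the hormone also induces, by -0.05 (SE 0.12; -0.17 without it). Of 18 measured members of the list, 4 fell (Fkbp5, Zbtb16, Lpin1 and Angptl4) and none rose, against 0.712% of all genes falling. Without Het_control 2 the first 3 fell, against 0.291%. The list median was -0.07, or -0.15 without that array and -0.24 under interquartile scaling. Without Het_HFD 2, 3 or 4 the list had 2, 1 and 2 falls, without Het_control 3 it had 2, and without Het_control 4 it had 4 falls and 2 rises.

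Glucose handling genes moved singly. Of 24 measured genes of glucose metabolism and insulin response, 1 rose (Sik1) and 1 fell (Pfkfb3), against 1.5% and 0.712% of all genes. Without Het_control 2 it was 0 and 1, against 0.582% and 0.291%. In value 7 were higher, and the median was -0.05, or -0.09 without that array and -0.21 under interquartile scaling. Slc2a1, the glucose transporter GLUT1, is outside that list and was picked after its value was seen. It read 9.75, 9.61, 9.41 and 9.92 on control diet, against 10.16, 10.35, 10.33 and 10.29 on high-fat diet, a rise of 0.61 (SE 0.10, adjusted p = 0.0104; 0.59 without Het_control 2) that held in every leave-out. Pfkfb3, which makes the activator of glycolysis fructose 2,6-bisphosphate, fell by 0.85 (SE 0.19, adjusted p = 0.0372; -0.93 without Het_control 2). The kinase Sik1, induced by cyclic AMP, rose by 0.72 (SE 0.16, adjusted p = 0.0356), but read 0.60 with adjusted p = 0.0668 without Het_control 2. Pfkfb3 and Sik1 lost their calls in 9 and 7 of 16 leave-outs (highest adjusted p 0.101 and 0.106).

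Genes of macrophages and Kupffer cells, the resident macrophages of liver, made up the largest group of risers among the lists. Of 37 measured, 14 rose and 1 fell, against 1.5% and 0.712% of all genes, and 33 were higher in value. Without Het_control 2, 6 rose and 1 fell, against 0.582% and 0.291% of all genes. The median difference was 0.36, or 0.27 without that array, and it stayed positive under each scaling tried. In wild type the median was -0.06 with 7 of 37 higher in value. Averaged over the 37 genes, the level was 9.27, 9.12, 9.44 and 9.23 on control diet, against 9.57, 9.84, 9.55 and 9.48 on high-fat diet. The high-fat arrays all stood above the control arrays, and Het_HFD 2 was the highest. Wild-type controls lay at 9.39 to 9.53 and wild-type high-fat arrays at 9.22 to 9.62, so 3 of the 4 heterozygous controls lay below the lowest wild-type control.

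The count of macrophage risers depended on single arrays more than the median did. It was 4, 1, 2 and 3 without Het_HFD 1 to 4, 3 without Het_control 1 and 6 without Het_control 2. With a wild-type array left out it was 5, 5 and 8 (WT_control 1, 2 and 4) or 9 and 7 (WT_HFD 1 and 3). The list median ranged from 0.25 without Het_HFD 2 to 0.42 without Het_control 3. Defining markers of the cell type were all higher in value: the mean of Adgre1, Cd68, Clec4f, Csf1r and C1qa was 9.85 to 10.31 on control diet, against 10.35 to 10.77 on high-fat diet. Of the other cell markers, those of endothelial cells averaged 9.50 to 10.05 on control and 9.84 to 9.96 on high-fat diet, of stellate cells 9.40 to 9.81 and 9.82 to 10.03, and of neutrophils 7.29 to 7.72 and 7.23 to 7.39. The 4 stellate markers had a median difference of only 0.09, or 0.06 without Het_control 2. Of 29 stellate and matrix genes, 15 were higher in value, with a median of 0.02, or -0.0035 without that array. Lrat alone was called there, and no member without Het_control 2. The part of cell numbers in the macrophage values was not tested.

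Single macrophage genes show the pattern by array. Tyrobp, the signalling adaptor DAP12 of myeloid receptors, read 9.72, 9.34, 9.99 and 9.75 on control diet, against 10.31, 10.77, 10.40 and 10.27 on high-fat diet. It rose by 0.74 (SE 0.12, adjusted p = 0.0118; 0.61 without Het_control 2) and kept its call in every leave-out. The immunoglobulin receptor gene Fcgr4 rose by 0.75 (SE 0.13, adjusted p = 0.0154; 0.61 without Het_control 2, and adjusted p = 0.0569 without Het_HFD 2).

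Cd68, a lysosomal protein, read 9.60, 9.55, 9.89 and 9.68 on control diet, against 10.07, 10.48, 10.19 and 10.07 on high-fat diet, a rise of 0.52 (SE 0.11, adjusted p = 0.0282; 0.48 without Het_control 2). The call failed without Het_control 1 or Het_HFD 2, 3 or 4 (highest adjusted p 0.0876). Vsig4, a complement receptor of Kupffer cells, rose by 0.92 (SE 0.21, adjusted p = 0.0415; 0.64 without Het_control 2), a call lost in 11 of 16 leave-outs (highest adjusted p 0.113). C1qb, a chain of the first complement component, rose by 0.63 (SE 0.12, adjusted p = 0.0223; 0.51 without Het_control 2), while C1qa read 0.18 (SE 0.12, adjusted p = 0.275; 0.16 without it) and C1qc rose by 0.58 (adjusted p = 0.0422), or 0.45 without Het_control 2 (adjusted p = 0.0705). The C1qb call was lost without Het_HFD 1, 2 or 3 (highest adjusted p 0.0822), and that of C1qc in 12 of 16 leave-outs. Adgre1 (F4/80) rose by 0.80 and the receptor Csf1r by 0.63, and neither was called without Het_control 2 (0.63, adjusted p = 0.0984, and 0.53, adjusted p = 0.0672). Cd9, a tetraspanin found in lipid-associated macrophages and in other cells, was the 1 member called downward and fell by 0.92 (SE 0.19, adjusted p = 0.0315; -0.91 without Het_control 2), and lost its call in 6 of 16 leave-outs (highest adjusted p 0.0763).

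Inhibitory receptors of myeloid cells were outside the list and were picked out after their values were seen. Clec12a, a C-type lectin, read 8.30, 7.96, 8.54 and 8.48 on control diet, against 9.22, 9.65, 8.98 and 9.02 on high-fat diet, a rise of 0.90 (SE 0.14, adjusted p = 0.0104; 0.78 without Het_control 2). Pilra, an immunoglobulin-like receptor, read 8.99, 8.61, 9.17 and 9.03 on control diet, against 9.96, 10.17, 9.60 and 9.59 on high-fat diet and rose by 0.88 (SE 0.14, adjusted p = 0.0118; 0.77 without Het_control 2). Both held in every leave-out, as did Cd72, an inhibitory receptor of B cells that some macrophages carry, which rose by 0.53 (SE 0.09, adjusted p = 0.0139; 0.48 without Het_control 2). Gas6 and its receptor Axl, a kinase pair that takes part in the clearance of dead cells, both rose, by 0.50 (SE 0.10, adjusted p = 0.0223) and 0.53 (SE 0.09, adjusted p = 0.0165), or 0.42 and 0.45 without Het_control 2. Gas6 lost its call without Het_HFD 2, 3 or 4 (highest adjusted p 0.0754), and Axl without Het_HFD 2 (adjusted p = 0.0591).

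Among genes for sensing bacterial lipopolysaccharide, Ly96, Ly86, Cd180 and Il1b rose. Ly96 (MD-2), which binds lipopolysaccharide together with Tlr4, read 8.0, 6.19, 8.47 and 9.77 on control diet, against 10.11, 10.29, 10.02 and 10.18 on high-fat diet. Control arrays were spread widely and high-fat arrays lay close together, with no overlap, and the rise was 2.04 (SE 0.45, adjusted p = 0.0368), or 1.4 without Het_control 2 (adjusted p = 0.0266). The call was lost in 9 of 16 leave-outs (highest adjusted p 0.103).

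Cd180, a relative of Tlr4 that works with Ly86, read 8.95, 8.15, 9.04 and 8.85 on control diet, against 9.55, 9.96, 9.36 and 9.26 on high-fat diet. It rose by 0.78 (SE 0.17, adjusted p = 0.0354; 0.58 without Het_control 2, adjusted p = 0.0485). Ly86 rose by 1.16 (SE 0.26, adjusted p = 0.0372; 0.83 without Het_control 2, adjusted p = 0.0464), and these calls were lost in 6 and 11 of 16 leave-outs. Tlr4 itself differed by 0.11 (SE 0.09), Cd14 by 0.08 (SE 0.08) and the serum carrier Lbp by 0.17 (SE 0.12), or 0.05, 0.08 and 0.10 without Het_control 2, none of them called. Il1b, the inflammatory cytokine, rose by 0.58 (SE 0.14, adjusted p = 0.0468) and was not called without Het_control 2 (0.56, adjusted p = 0.0747).

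Of the 22 genes in the sensing list, 4 rose and none fell, and 3 and none without Het_control 2, against 1.5% and 0.582% of all genes rising, with a median of 0.12 or 0.10. No member was called without any 1 of the 4 Het_HFD arrays or without WT_control 1 or 2, 1 was called without Het_control 1 or 3 or WT_HFD 3, and 2 without WT_HFD 1. Genes of the NF-kappaB family outside the list, picked after their values were seen, rose as well: Rel by 0.67 (SE 0.13, adjusted p = 0.0222) and the inhibitor Nfkbib by 0.53 (SE 0.11, adjusted p = 0.0312), or 0.53 and 0.40 without Het_control 2. Rel was not called without Het_HFD 2, 3 or 4 (highest adjusted p 0.0771), and Nfkbib in 5 of 16 leave-outs.

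**Figure D3:**
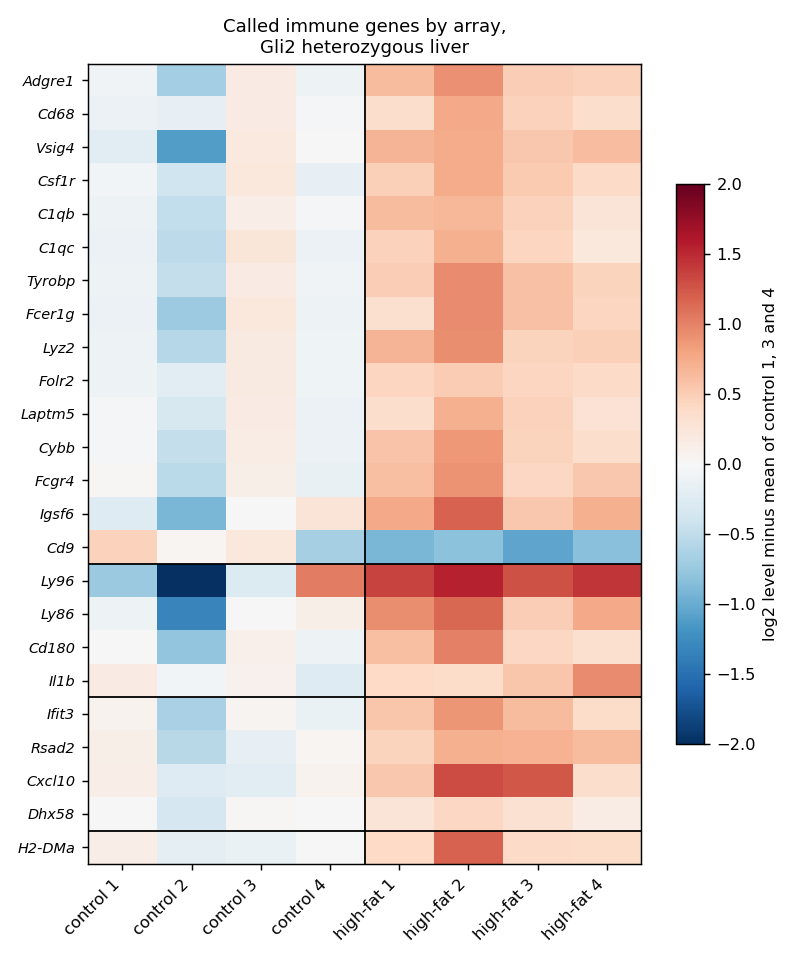
Log2 level minus the mean of control arrays 1, 3 and 4 for the 24 called genes of the macrophage, lipopolysaccharide sensing, interferon and class II lists (separated by lines), on the 4 control and 4 high-fat arrays of heterozygotes. Het_control 2 lies below the mean of the other controls for 23 of the 24, and Het_HFD 2 is the highest of the high-fat arrays for 23.

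Interferon-induced genes, switched on when interferon activates STAT and IRF transcription factors, were higher in value in nearly the whole list. Of 40 measured, 38 were higher, or 39 without Het_control 2, against 40.5% and 42.8% of all genes, dim genes included. The list's median was 0.29, or 0.22 without that array, and 0.09 in wild type. The test called 4 (Ifit3, Rsad2, Cxcl10 and Dhx58), against 1.5% of all genes rising. Without Het_control 2 it called 2 (Rsad2 and Cxcl10), against 0.582%. The number was 0 without Het_HFD 2 or 3, 1 without Het_HFD 4 or Het_control 3, 2 without Het_HFD 1, WT_HFD 1 or WT_control 1, 2 or 4, and 14 without Het_control 4.

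The stretch just before the start is shown for the 3 of the 4 called genes with an entry in the RefSeq promoter table (mouse assembly GRCm38.p6), because factors activated by interferon are known to bind near the start of such genes. Each runs 5′ to 3′ along the gene's strand, from 200 to 51 bases before the annotated start, and capitals mark the longest run of letters that Ifit3 and Rsad2 share.
Ifit3, chr19:34583329-34583478, plus strand: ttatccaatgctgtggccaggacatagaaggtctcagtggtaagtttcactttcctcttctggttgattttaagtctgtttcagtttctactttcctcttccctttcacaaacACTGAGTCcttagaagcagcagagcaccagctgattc
Rsad2, chr12:26456503-26456652, minus strand: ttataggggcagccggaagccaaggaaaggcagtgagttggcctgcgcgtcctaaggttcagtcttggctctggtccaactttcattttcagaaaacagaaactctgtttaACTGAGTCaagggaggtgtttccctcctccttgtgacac
Cxcl10, chr5:92348940-92349089, minus strand: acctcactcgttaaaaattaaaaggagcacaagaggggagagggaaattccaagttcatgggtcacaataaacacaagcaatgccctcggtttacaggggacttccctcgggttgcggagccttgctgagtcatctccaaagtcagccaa
That run has 8 bases and begins 87 bases before the start in Ifit3 and 89 in Rsad2. Rsad2 and Cxcl10 also share 8 bases at most, and Ifit3 and Cxcl10 share 7. A shared run is a description of the letters and not a measured binding site, and no factor's element was searched for.

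Rsad2 (viperin), an antiviral enzyme of the lipid droplet and endoplasmic reticulum, read 8.25, 7.58, 7.97 and 8.17 on control diet, against 8.58, 8.85, 8.82 and 8.76 on high-fat diet. It rose by 0.76 (SE 0.15, adjusted p = 0.0222; 0.62 without Het_control 2, adjusted p = 0.0344), a call lost without Het_HFD 2, 3 or 4 (highest adjusted p 0.076). Cxcl10, a chemokine that attracts T cells, read 9.13, 8.74, 8.79 and 9.07 on control diet, against 9.54, 10.31, 10.24 and 9.34 on high-fat diet. High-fat arrays 2 and 3 were higher than 1 and 4, and the rise was 0.92 (SE 0.18, adjusted p = 0.0245; 0.86 without Het_control 2, adjusted p = 0.0476), a call lost without Het_control 3, Het_HFD 2 or Het_HFD 3 (highest adjusted p 0.0824).

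Ifit3, a cytosolic antiviral protein, read 10.03, 9.30, 10.01 and 9.83 on control diet, against 10.52, 10.84, 10.58 and 10.31 on high-fat diet, a rise of 0.77 (SE 0.18, adjusted p = 0.0407). Without Het_control 2 it was 0.61 (adjusted p = 0.0709). Dhx58, a helicase of the RNA-sensing pathway, rose by 0.36 (SE 0.08, adjusted p = 0.0377; 0.28 without Het_control 2, adjusted p = 0.0559). In the class II antigen presentation list of 8, only H2-DMa, a peptide loading protein, was called, at 0.62 (SE 0.14, adjusted p = 0.0379), and it was not called without Het_control 2 (0.58, adjusted p = 0.0684). That rise rested in part on Het_HFD 2, where H2-DMa read 9.87 against 9.05 to 9.10 on the other high-fat arrays.

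Serpinb1a, an inhibitor of neutrophil serine proteases, was among the 32 genes called in every leave-out. It read 8.38, 7.86, 8.28 and 8.15 on control diet, against 9.32, 9.09, 10.21 and 9.20 on high-fat diet, a rise of 1.29 (SE 0.19, adjusted p = 0.00811; 1.18 without Het_control 2). Its relative Serpinb8 rose by 0.84 (SE 0.15, adjusted p = 0.0165; 0.67 without Het_control 2), a call lost without Het_HFD 2 or 4 (highest adjusted p 0.0631). None of 12 neutrophil genes was called, and their median was -0.12, or -0.01 without Het_control 2 and 0.03 under interquartile scaling.

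Several further members of the 32 are expressed in particular cell types or processes, and were picked from that set after their values were seen. S1pr5, a sphingosine 1-phosphate receptor known from natural killer cells, read 9.03, 8.79, 8.76 and 8.97 on control diet, against 9.36, 9.87, 9.75 and 9.64 on high-fat diet, a rise of 0.77 (SE 0.12, adjusted p = 0.00811; 0.73 without Het_control 2). Mest, an imprinted gene that marks growing fat tissue, rose by 0.50 (SE 0.08, adjusted p = 0.00811), and the lysosomal phospholipase Pla2g15 by 0.45 (SE 0.07, adjusted p = 0.0104), or 0.46 and 0.42 without Het_control 2. Ms4a8a, a membrane protein found on some macrophages, read 8.39, 8.27, 8.42 and 8.63 on control diet, against 8.97, 9.01, 8.98 and 8.95 on high-fat diet, a rise of 0.55 (SE 0.07, adjusted p = 0.00541; 0.50 without Het_control 2). Gldn fell by 0.57, Mpp4 fell by 0.59 and Gask1a fell by 0.75, with -0.56, -0.56 and -0.76 without Het_control 2.

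Other lists had few called members, beside 1.5% of all genes rising and 0.712% falling, or 0.582% and 0.291% without Het_control 2. For 24 ribosomal protein genes the median was -0.20 (-0.18 without Het_control 2, -0.36 under interquartile scaling, -0.12 in wild type) and 22 had negative values, and Rpsa and Rps4x fell but were not called without that array. Of 34 drug-metabolizing enzymes, 29 were higher in value, as were 30 in wild type, with a median of 0.30 (0.17 without Het_control 2, 0.12 under interquartile scaling). The 2 risers, Gstt3 and Aldh1a1, were not called without Het_control 2, and 18 rose without Het_control 4. One member rose in the cell cycle list of 36 (Tk1, a thymidine kinase), none without Het_control 2 and 8 without Het_control 4, and the median was 0.14 in both fits, 0.22 under interquartile scaling and -0.13 in wild type. Acute phase genes (27) had 2 risers, Saa2 and Saa4 by 1.11 and 0.60, and none of them was called without Het_control 2 (0.95 and 0.43), where Apcs, the serum amyloid P component, fell by 0.49 (adjusted p = 0.0321). Gas1, a hedgehog co-receptor, was the only called gene of 23 in the hedgehog pathway list, at 0.40 (SE 0.10, adjusted p = 0.0479) and 0.48 without Het_control 2 (adjusted p = 0.0218), lost in 14 of 16 leave-outs (highest adjusted p 0.133). The hedgehog list median was -0.13, or -0.06 without that array, and Gli1 differed by -0.12 (SE 0.06, adjusted p = 0.185; -0.06 without it). No sterol synthesis, endothelial, lymphocyte, bile duct, pancreas or hepatocyte gene on the lists was called in either fit.

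**Figure D4:**
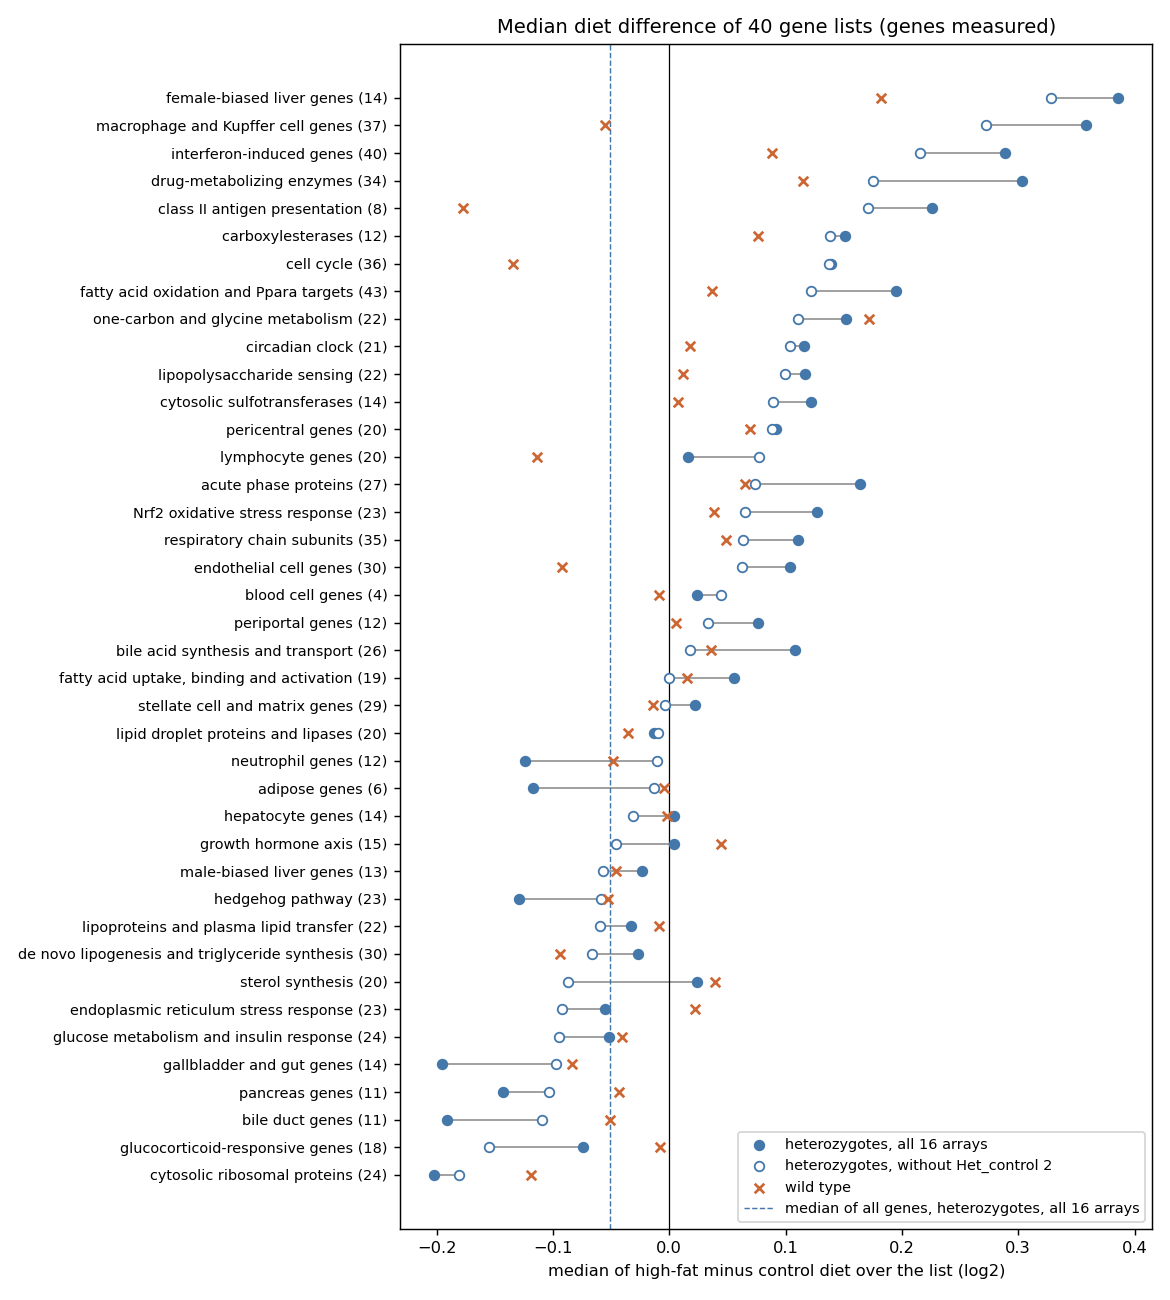
Median high-fat minus control difference in log2 of 40 gene lists, with the number measured in brackets: filled circles for heterozygotes with all 16 arrays, open circles without Het_control 2, crosses for wild type, and a dashed line for the median of all genes. The female-biased, macrophage, drug-metabolizing enzyme and interferon lists lie furthest to the right with all 16 arrays, and the ribosomal protein list at the left end.

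The wild-type response was smaller in size for all 161 genes called in both fits, and for 159 without Het_control 2, but these genes were picked by their heterozygous values. Of them 124 had the same sign in wild type. The 105 risers had a median of 0.55 in heterozygotes and 0.10 in wild type, and the 56 that fell -0.55 and -0.09. Without Het_control 2 the heterozygous medians were 0.47 and -0.44. The test of the difference between genotypes called 0 of 19938 genes (0.0%) with limma, although 1621 had an unadjusted p under 0.05, and the lowest adjusted p was 0.24 (0.188 without Het_control 2, also with 0 calls and 1709 unadjusted), so the response is not shown to differ between genotypes. Slco1a1 read -1.05 in wild type against -2.92 here (difference -1.87, adjusted p = 0.529), and Fabp5 -1.82 against -2.67 (adjusted p = 0.658). For Zbtb16 wild type gave -0.26 (adjusted p of the difference 0.248) and for Cd36 0.19 (adjusted p of the difference 0.4). Without Het_control 2 the adjusted p of the difference was 0.43, 0.738, 0.225 and 0.292 for these 4 genes.

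**Figure D5:**
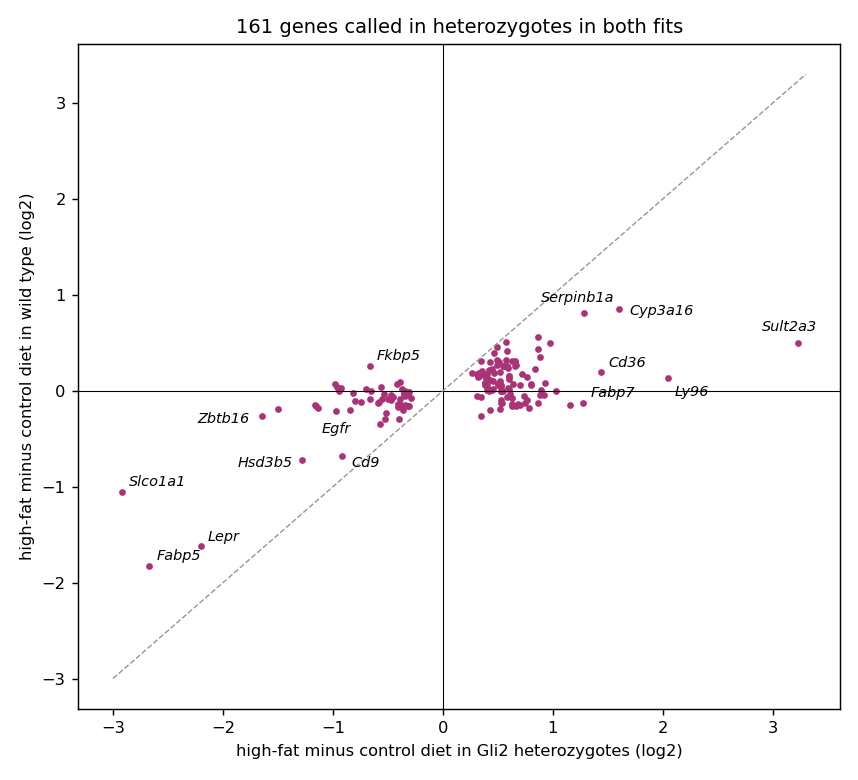
High-fat minus control difference in log2 for the 161 genes called in both fits, heterozygotes on the x axis and wild type on the y axis, with the dashed line at equal values. All points lie closer to 0 on the wild-type axis, and Sult2a3 and Ly96 read 0.49 and 0.13 there, and the genes were picked by their heterozygous values.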

How the data were processed

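Liver RNA of 16 mice was measured on Affymetrix MoGene 1.0 ST arrays, 1 array per animal. Per the submitters' processing notes, the authors made the deposited log2 values by RMA with Affymetrix Expression Console, whose version is not given in the sources here. RMA scales the arrays towards 1 distribution, so levels are relative. The deposited levels did not fully share it: the interquartile range was 1.95 on Het_control 2 and 2.4 to 2.6 on the other 15. Of 35556 probe sets, 21789 have 1 gene symbol, giving 19938 genes, each represented by the probe set with the highest mean over 16 arrays. Differences were tested with limma 3.58.1 (lmFit and eBayes) in R 4.3.3, with statmod 1.5.0 for a random block, on 1 fit of 4 group means, and p-values were adjusted over all genes by Benjamini-Hochberg. The fit was tested on simulated data with independent normal values and 1 spread per gene. No array was compressed there, so the simulation does not cover the effect of Het_control 2. Alternatives left out each array in turn, used heterozygous arrays alone, array weights, other moderation, other scaling, all probe sets, no dim genes or the title number as a block. Requantiling without Het_control 2 was added after the data were seen.

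The genes, lists and tests were chosen with earlier results of these data known. Named genes are up to 15 that rose and 15 that fell most, up to 5 called members of each list by smallest p, or 1 where none was called, Gli2, Gli1, the 5 genes with the smallest interaction p, and family members or single genes picked after their values were seen. Sample titles carry a number whose meaning is not stated. In heterozygotes no number occurs on both diets, so it cannot be told apart from diet. Replicate numbers follow record order. Promoter stretches were copied from the RefSeq promoter table of assembly GRCm38.p6, matched by Entrez gene identifier.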

Additional observations from a re-analysis of the deposited data

Results flagged for a closer look

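Of 276 groups of 4 arrays examined for 1 array far from the other 3, 15 had one, and chance gives about 1 in 20. Het_control 2 was that array in 6: its interquartile range was 1.95 (others 2.40 to 2.41), and it read 8.21 for Fabp7 (9.29 to 9.36), 8.25 for Ly86 (9.46 to 9.68), 8.597 for Dhx58 (8.92 to 8.95), 8.53 for the pancreas gene Ctrb1 (7.999 to 8.05) and 8.14 for Gli2 (7.50 to 7.59). Het_HFD 2 was that array in 3: H2-DMa read 9.88 (9.05 to 9.10), Rps4x 11.89 (11.74 to 11.75) and Slc18a1, a monoamine transporter, 8.05 (8.12 to 8.13). Het_HFD 4 read 10.77 for Cyp3a16 (11.71 to 11.80) and 12.54 for Plin2 (12.47 to 12.48), and Het_HFD 3 11.96 for Sult1d1 (12.12 to 12.16). Het_control 3 read 13.28 for Rgs16 (13.04 to 13.06) and 12.43 for St3gal5 (12.22 to 12.24), and Het_control 1 8.28 for 4930444G20Rik (8.39 to 8.41). Emp3, a membrane protein, was higher on every high-fat array in heterozygotes and lower on every one in wild type. Its response differed by 0.61 between genotypes, which did not pass the test (limma adjusted p = 0.24, or 0.188 without Het_control 2).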

How the results depend on the processing

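The count of called genes moved with most choices. Against 442, it was 7 with heterozygous arrays alone (202 when Het_control 2 was left out of them too) and 1067 with array weights. Title numbers as a random block, whose estimated correlation was negative (-0.37), gave 6938. All probe sets gave 95 of 35556 tested, and quantile normalization without Het_control 2 gave 143. Leaving out 1 array gave 45 to 3446. It stayed within 1.5 times of 442 with other moderation, repeated quantile normalization and scaling to a common interquartile range. The mean of a gene's probe sets gave 446. With dim genes left out 586 were called, but of 9969 genes tested and not 19938, so the called share was higher. The 161 genes called in both fits kept their direction in each setting that gave them a value (127 of them with dim genes left out), and were not followed over all probe sets. Leaving out an array could not turn a direction, because the diet groups of these genes do not overlap. Of the 161, 5 were still called with heterozygous arrays alone, and 97, 46, 41 and 50 without Het_HFD 1 to 4. All 161 were called with array weights and 143 after repeated quantile normalization. The difference between genotypes, 0 calls, gave 1 with array weights and 2 with the title number block, and 0 without any 1 array. The Gli2 difference turned to 0.0255 after quantile normalization without Het_control 2. The causes were not tested. No paired analysis was possible because no title number occurs on both diets in heterozygotes (wild type has 1 such number), and replicate numbers follow record order. The spread of 4 arrays a group limits the precision.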

Other observations

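Small nucleolar RNAs, which guide the modification of ribosomal RNA and are often spliced from introns of ribosomal protein genes, were looked at after the values were seen. Of 53 tested, 10 fell and none rose, or 6 and none without Het_control 2, against 0.712% and 0.291% of all genes falling. Their median difference was -0.26, or -0.21 without Het_control 2, and -0.07 in wild type, and it was -0.31 after repeated quantile normalization and -0.34 after interquartile scaling. The median of all genes was -0.05, or -0.02 without Het_control 2. Other non-coding classes were lower too: the median was -0.15 for 297 microRNAs and -0.14 for 675 long non-coding RNAs. Without Het_control 2 these 2 medians were -0.07 and -0.06, and after interquartile scaling -0.02 and -0.05. Snord87 read 8.22, 8.595, 8.59 and 7.63 on control diet, against 6.80, 7.38, 7.09 and 7.14 on high-fat diet. It fell by 1.15 (SE 0.18, limma adjusted p = 0.0104; -1.04 without Het_control 2) and was called in every leave-out. Snora73b fell by 0.96 (SE 0.18, adjusted p = 0.0196; -0.78 without Het_control 2), lost without Het_HFD 3 or 4 (highest adjusted p 0.0704). Snora73a fell by 0.92 (SE 0.17, adjusted p = 0.0173; -0.78 without Het_control 2), with the same losses. Snora62 read 8.70, 10.06, 9.01 and 8.48 on control diet, against 8.08, 8.12, 8.10 and 8.16 on high-fat diet, and fell by 0.95 (SE 0.22, adjusted p = 0.0428; -0.62 without Het_control 2), a call lost in 11 of 16 leave-outs. Olfactory receptor genes, dim on these arrays with a median level of 5.87, gave 27 falls of 1027 and 8 when Het_control 2 was left out, against the same 0.712% and 0.291% of all genes. Their median was -0.24 in the first fit and -0.12 in the second.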
